A study of Homo sapiens with 72 samples.

Results

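The data described here are the lncRNA genes of the human mammary epithelial line MCF10A-M1 (M1) followed over 24 h with SB431542, an inhibitor of the TGF-β type I receptor. The time course comprised 12 of the 72 RNA libraries of the study, 3 at each of 4 times. Genes were kept where at least 3 of the 24 M1 libraries had 0.5 TPM or more (TPM is an abundance scaled by transcript length and library total), which left 20899 of 96411 lncRNA genes. The filter used no group labels, but a group holds 3 libraries, so a gene could pass through 1 group in which it was high.

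TGF-β is a secreted ligand that brings together type II and type I receptor kinases at the cell surface. The type I kinase phosphorylates SMAD proteins, which enter the nucleus with a common partner and raise or lower the transcription of target genes. SB431542 occupies the ATP site of the type I receptor kinases of the TGF-β, activin and nodal branch, so that signalling from ligand already present in the culture is blocked too. Long non-coding RNAs (lncRNAs) are transcripts without a long open reading frame, and some are transcribed under SMAD control or act in the response of epithelial cells to TGF-β.

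The SB431542 (SB) libraries were taken at 2, 8 and 24 h and at an earliest time, which the sample titles give as 0 h and the treatment labels as 0.5 h. A second M1 arm received TGF-β at 5 ng/mL for 2, 8 and 24 h beside non-stimulated controls at 0 h, again 3 libraries per time. SB was given at 10 µM, and all cells had spent the night before in medium without serum. The same SB course was run in MCF10A-M2 (M2), the MCF10A line transformed with HA-Ras, and in MDA-MB-231, a triple-negative breast cancer line. DMSO and ligand buffer are named as the vehicles, but no library used here is a vehicle sample of 2, 8 or 24 h. Effects of the inhibitor therefore cannot be told apart from other changes over the same hours without serum. Fewer cells of a kind and less RNA per cell cannot be told apart in such bulk RNA either. Every feature in the table is an lncRNA gene, so marker mRNAs of mammary epithelium and mRNA targets of TGF-β were not analysed here.

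TPM has the same fixed sum over the lncRNA genes of each library, and no depth was recoverable, so the counting error is unknown. In the 12 SB libraries 15412 to 16748 genes stood at 0.5 TPM or more. One gene held 26.1% to 30.9% of the TPM and the 10 most abundant genes held 60.4% to 67.3%. Replicates correlated across genes with r of 0.951 to 0.960 on the log2 scale, where genes are not independent replicates. The number of genes at 0.5 TPM or more was 15664 ± 117 at 24 h of SB and 15537 ± 207 in the earliest SB samples (SD, n = 3 each, two-sided exact permutation p = 0.3). The share of the 10 most abundant genes was 66.1% ± 0.761 at 24 h and 63.7% ± 1.88 in the earliest samples (SD, n = 3 each). Its exact permutation p of 0.1 is the smallest that 3 against 3 libraries can give. The share of the top gene was 28.1% ± 1.41 and 27.7% ± 1.41 in the same groups (exact permutation p = 0.8, n = 3 each).

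Because a few genes hold most of each library, counts are given for the TPM as deposited and after median-of-ratios scaling, in which a library's factor is the median of its gene-wise ratios to the typical library. The scaling factors ran from 0.96 to 1.21 in the SB libraries and from 0.75 to 1.21 in all 24 M1 libraries. Changes are differences of log2(TPM + 0.5) tested with limma, and a gene was called at a Benjamini-Hochberg adjusted p under 0.05 over all genes tested. This scale understates the changes of genes at low levels.

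The question was which lncRNA genes fall or rise once receptor signalling in unstimulated M1 cells is blocked, and when. Few genes were called at 2 h, many more were called in each direction at 8 h, and falls outnumbered rises among the calls at 24 h as deposited. At 2 h limma called 17 genes, 6 higher and 11 lower than in the earliest SB samples, which is 0.0813% of the genes tested. At 8 h it called 391 genes higher (1.87%) and 379 lower (1.81%). At 24 h it called 420 higher (2.01%) and 677 lower (3.24%). Without adjustment 1807, 3432 and 3601 genes had a limma p under 0.05 at 2, 8 and 24 h. The median log2 change over all tested genes was 0.04 at 2 h, 0.08 at 8 h and 0.005 at 24 h.

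The split between rises and falls moved with the scaling. At 2 h it was 7 higher and 21 lower after median-of-ratios scaling, and 13 and 15 with the scaling total taken without the 10 top genes. At 8 h median-of-ratios scaling gave 421 higher and 701 lower genes, and a total taken without the 10 top genes gave 718 and 368. At 24 h these settings gave 563 higher and 851 lower, and 776 and 645. Called the same way under the deposited and the median-of-ratios scaling were 406 higher and 658 lower genes at 24 h, and 348 and 378 at 8 h, with 0 genes called in opposite directions. The 8 h total of 770 dropped to 454, 471 and 507 when earliest SB replicates 1, 2 and 3 were left out in turn. It dropped to 439 and 477 when 8 h replicates 1 and 2 were. Leaving out 24 h replicates 1, 2 and 3 in turn took the 24 h total of 1097 to 700, 707 and 719. The 2 h total became 9 when earliest SB replicate 3 was omitted and 5 when 2 h replicate 2 was.

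**Figure D1:**
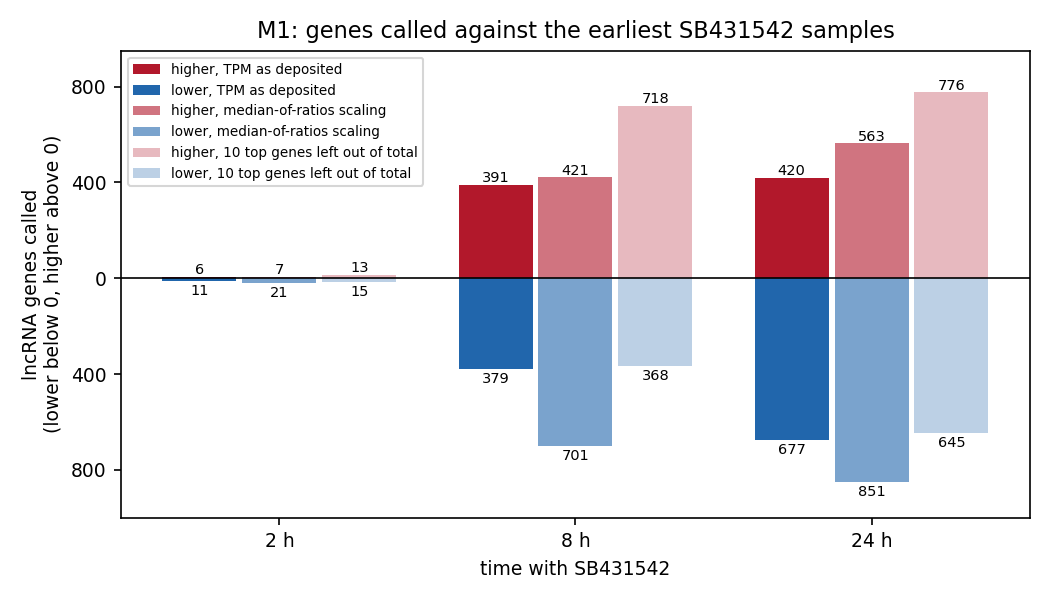
Number of M1 lncRNA genes called by limma at 2, 8 and 24 h of SB431542 against the earliest SB431542 samples (3 libraries per group), with genes called higher above 0 and genes called lower below 0, for the deposited TPM and 2 other scalings. At 24 h the bars for deposited TPM stand at 420 and 677, and the split between the directions changes with the scaling at 8 h and 24 h.

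The fallen genes had higher levels than the risen ones in the earliest SB samples and close ones at 24 h. The median of their mean TPM was 9.98 at 24 h and 19.8 in the earliest SB samples for the 677 fallen genes, and 9.03 and 4.03 for the 420 risen genes. Together the fallen genes held 48260 TPM at 24 h, against 78190 TPM in the earliest samples. The risen genes held 32070 TPM at 24 h, against 17510 TPM in the earliest samples. The calls were made on these same libraries, so the direction of change within each set follows from the selection. The gap between the sets in the earliest samples is favoured by it too. The log2 change had a size of 1 or more in 286 of the fallen and 205 of the risen genes, and of 2 or more in 45 and 13.

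Calls depended on level. Among genes with a mean under 1 TPM, 0.58% were called lower and 0.846% higher at 24 h, out of 8278. Among 8741 genes with a mean of 1 to under 10 TPM, 2.48% were lower and 1.98% higher. From 10 to under 100 TPM, 9.12% of 3290 genes were lower and 4.32% higher. At 100 TPM or more, 19% of 590 genes were lower and 5.93% higher. The median standard error of the log2 change was 0.39, 0.33, 0.17 and 0.11 in these 4 classes, so a change of a given size was harder to call at low levels.

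Genes ranked at 24 h had to be called under deposited and median-of-ratios scaling, with all 3 libraries of 24 h beyond the 3 earliest ones. That separation is therefore no result for them. It was present in 671 of the 677 fallen and 419 of the 420 risen genes, and in 4098 of the 19802 genes not called. The falls were led by NONHSAG061061.2, the gene with the largest negative change among those that met this naming rule. It stood at 0.205, 0.437 and 0.402 TPM after 24 h of SB, against 17.7, 15.3 and 18 TPM in the earliest SB samples. At 2 h its libraries spread over 5.75, 14.3 and 21 TPM, and at 8 h they stood at 1.83, 0.797 and 0.941 TPM. The 2 h libraries thus overlapped with the earliest ones, while all libraries at 8 h and 24 h lay below every earlier one. The log2 change was −0.47 (SE 0.35, limma adjusted p 0.773) at 2 h, −3.42 (SE 0.35, adjusted p 1.77e-06) at 8 h and −4.37 (SE 0.35, adjusted p 2.43e-08) at 24 h. With TGF-β for 24 h it stood at 16.5, 14.8 and 15.4 TPM, against 20.4, 22.3 and 20.7 TPM in the non-stimulated controls, a difference that was not called (log2 −0.43, limma adjusted p 0.457).

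NONHSAG082069.1, ranked second among the falls, had already fallen at 2 h. Its libraries stood at 39.2, 41.3 and 45.4 TPM in the earliest SB samples, 8.36, 9.61 and 10.5 TPM at 2 h, 6.56, 6.22 and 2.78 TPM at 8 h, and 1.77, 1.84 and 2.28 TPM at 24 h. No library of one time overlapped with those of another, and each later group was lower. The log2 change was −2.09 (SE 0.19, limma adjusted p 3.4e-06) at 2 h and −4.11 (SE 0.19, adjusted p 1.99e-12) at 24 h, and the log2 difference of 24 h from 8 h was −1.13 (adjusted p 0.0106). Under TGF-β the same gene was higher, at 87.8, 91.9 and 79 TPM after 24 h, against 56.2, 48.6 and 57 TPM in the controls (log2 0.67, SE 0.19, limma adjusted p 0.0185).

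The gene of rank 3 stood at 5.81, 5.42 and 8.11 TPM at 24 h of SB, against 82.1, 96.7 and 90.8 TPM at the earliest time. It had reached 7.27, 8.53 and 6.31 TPM by 8 h, and the difference of 24 h from 8 h was not called (log2 −0.19, limma adjusted p 0.976). With TGF-β for 24 h it stood at 207, 216 and 265 TPM, against 78.6, 97.9 and 76.2 TPM in the controls. As the naming rule required, the gene lay below its starting libraries in all 3 SB libraries of 24 h. It lay above its controls in all 3 TGF-β libraries of 24 h.

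For rank 4 the libraries of each time lay close together. Its SB libraries stood at 90.8, 104 and 97.1 TPM at the earliest time, 49.4, 46.7 and 51.2 TPM at 2 h, 14.7, 14.9 and 16.1 TPM at 8 h, and 9.93, 10.6 and 10.3 TPM at 24 h. No library overlapped between these times. The step at 2 h was −0.98 on the log2 scale (SE 0.09, limma adjusted p 3.4e-06), and the log2 difference of 24 h from 8 h was −0.55 (SE 0.09, adjusted p 0.00577). With TGF-β it was at 491, 478 and 499 TPM at 2 h and 420, 442 and 482 TPM at 24 h, against 93.7, 112 and 113 TPM in the controls.

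**Figure D2:**
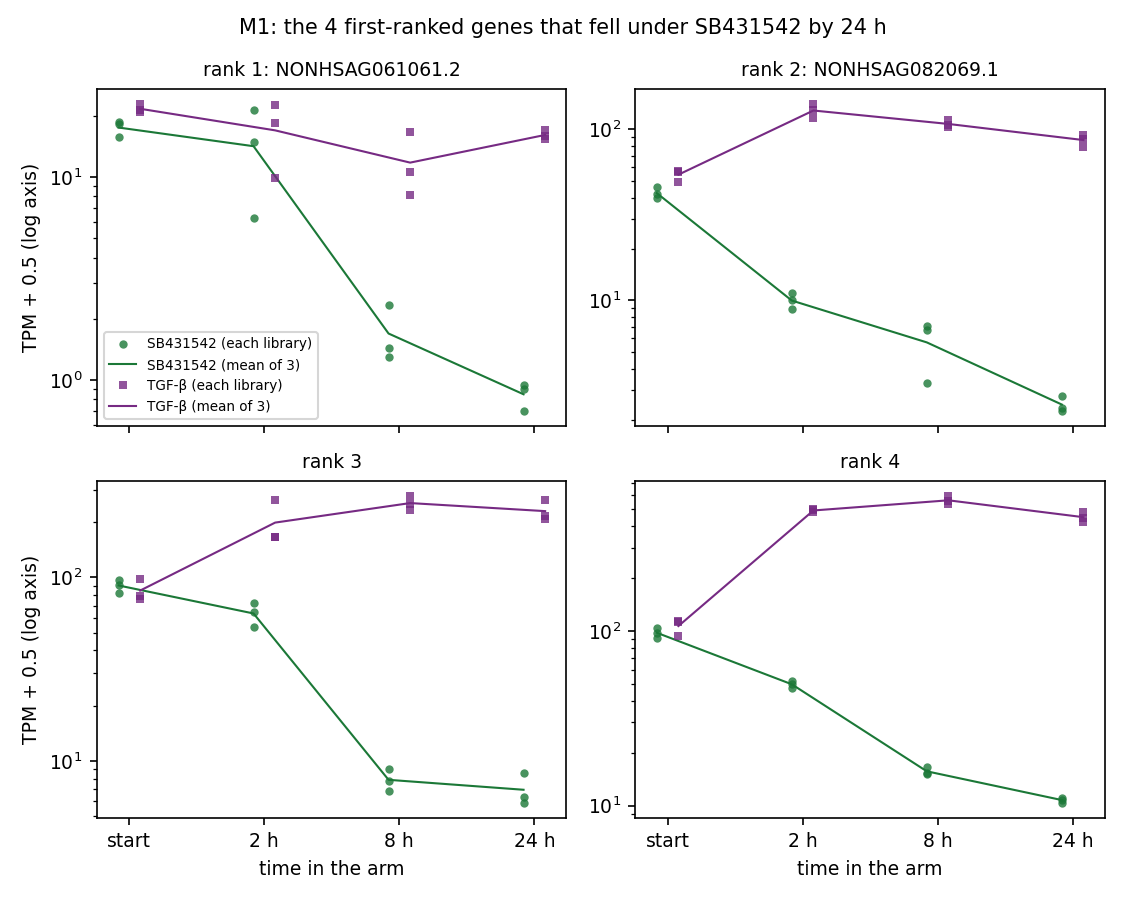
TPM + 0.5 on a log axis for the 4 first-ranked genes that fell under SB431542 in M1, at the start, 2, 8 and 24 h, with each library as a point and the mean of 3 as a line, for the SB431542 arm and the TGF-β arm. In the SB431542 arm all 4 genes end below every starting library, as the naming rule required. Ranks 2, 3 and 4 end above their controls in the TGF-β arm.

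Ranks 5 to 8 fell to levels near 0. The gene of rank 5 was listed at 0, 0.518 and 0 TPM at 24 h of SB, against 5.83, 5.12 and 4.27 TPM at the earliest time. It was low after TGF-β too, at 0, 0.388 and 0.691 TPM at 24 h, against 6.59, 6.15 and 2.97 TPM in the controls (log2 −2.76, limma adjusted p 2.35e-05). The sixth stood at 0.123, 0 and 0.149 TPM at 24 h of SB, against 3.79, 6.58 and 3.84 TPM at the earliest time. Its TGF-β libraries of 24 h, at 5.91, 5.23 and 5.65 TPM, lay within the range of the controls, 3.82 to 7.89 TPM. The seventh stood at 0.332, 0.199 and 1.2 TPM at 24 h of SB, against 6.86, 9.28 and 7.7 TPM at the earliest time. All 3 lay below every starting library, as the naming rule required. The eighth stood at 0.276, 0 and 0.619 TPM at 24 h of SB, against 5.62, 3.79 and 8.91 TPM. Unlike the seventh, which was not called under TGF-β (adjusted p 0.83), the eighth was called higher there, at 22, 23.5 and 32.6 TPM at 24 h, against 5.23, 5.5 and 6.49 TPM in the controls (log2 2.07, limma adjusted p 0.00133).

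Rank 9 was more abundant, was lower at 8 h and was lower again at 24 h. It stood at 172, 235 and 210 TPM in the earliest SB samples, 204, 206 and 161 TPM at 2 h, 68, 71.8 and 55.5 TPM at 8 h, and 24.7, 21.6 and 27 TPM at 24 h. The difference of 24 h from 8 h was −1.39 on the log2 scale (SE 0.16, limma adjusted p 1.11e-04). Rank 10 stood at 0.205, 0.934 and 1.06 TPM at 24 h, against 9.2, 7.68 and 10.1 TPM at the earliest time. All 10 ranked falls had log2 changes between −4.37 and −3.02 at 24 h, with limma adjusted p of at most 6.05e-05. All 10 were also called lower at 8 h, 2 of them at 2 h, and 3 were called lower at 24 h than at 8 h. These comparisons share the earliest or the 24 h libraries with the ranking, so such calls were favoured by the selection. Of all genes, 1.81% were called lower at 8 h. In either direction 0.0813% were called at 2 h and 0.0861% at 24 h against 8 h.

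Among rises NONHSAG076332.1 ranked first. It stood at 7.45, 8.93 and 10.6 TPM at 24 h of SB, against 1.07, 1 and 0.781 TPM in the earliest samples. At 8 h it was already at 11.3, 7.22 and 8.6 TPM, and no difference of 24 h from 8 h was called (log2 0.00, SE 0.26). The libraries at 8 h and 24 h overlapped with each other and lay above all those of the earliest time and of 2 h (1.46, 2.41 and 1.51 TPM). The change at 24 h was 2.70 on the log2 scale (SE 0.26, limma adjusted p 5.46e-07), a ratio of 6.51 on the log2(TPM + 0.5) scale. With TGF-β for 24 h it stood at 2.72, 1.95 and 2.57 TPM, against 2.17, 0.785 and 1.5 TPM in the controls, which was not called (limma adjusted p 0.129).

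NONHSAG110397.1 ranked second, at 3.04, 3.42 and 2.98 TPM at 24 h of SB, against 0.222, 0 and 0 TPM at the earliest time (log2 2.69, SE 0.53, limma adjusted p 0.00274). Its 8 h libraries spread from 0 to 3.08 TPM. The non-stimulated controls of the other arm stood at 0.587, 0.818 and 1.1 TPM, and against them the level at 24 h of SB was not called (log2 1.47, limma adjusted p 0.113).

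The gene of rank 4 moved apart in the 2 arms. It stood at 52.6, 44.4 and 56.7 TPM at 24 h of SB, against 7.4, 10.3 and 11.6 TPM at the earliest time (log2 2.35, SE 0.26, limma adjusted p 2.84e-06). After 24 h of TGF-β it stood at 2.43, 2.8 and 3.2 TPM, against 8.94, 4.79 and 7.35 TPM in the controls (log2 −1.15, SE 0.26, limma adjusted p 0.00303). The groups overlapped in neither arm, which the naming rule required for the SB arm alone.

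Rank 6 was the most abundant of the 10 ranked rises and had risen by 8 h. Its libraries stood at 1620, 1960 and 1780 TPM at the earliest time, 1960, 2590 and 2720 TPM at 2 h, 8580, 8420 and 8590 TPM at 8 h, and 7180, 8420 and 8860 TPM at 24 h. The change at 24 h was 2.19 on the log2 scale (SE 0.12, limma adjusted p 1.21e-11). Under TGF-β it was higher at 8 h, at 3150, 3010 and 2730 TPM, against 1610, 2250 and 1910 TPM in the controls (log2 0.63, limma adjusted p 0.00103), and at 24 h it was not called (log2 0.15, adjusted p 0.413).

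**Figure D3:**
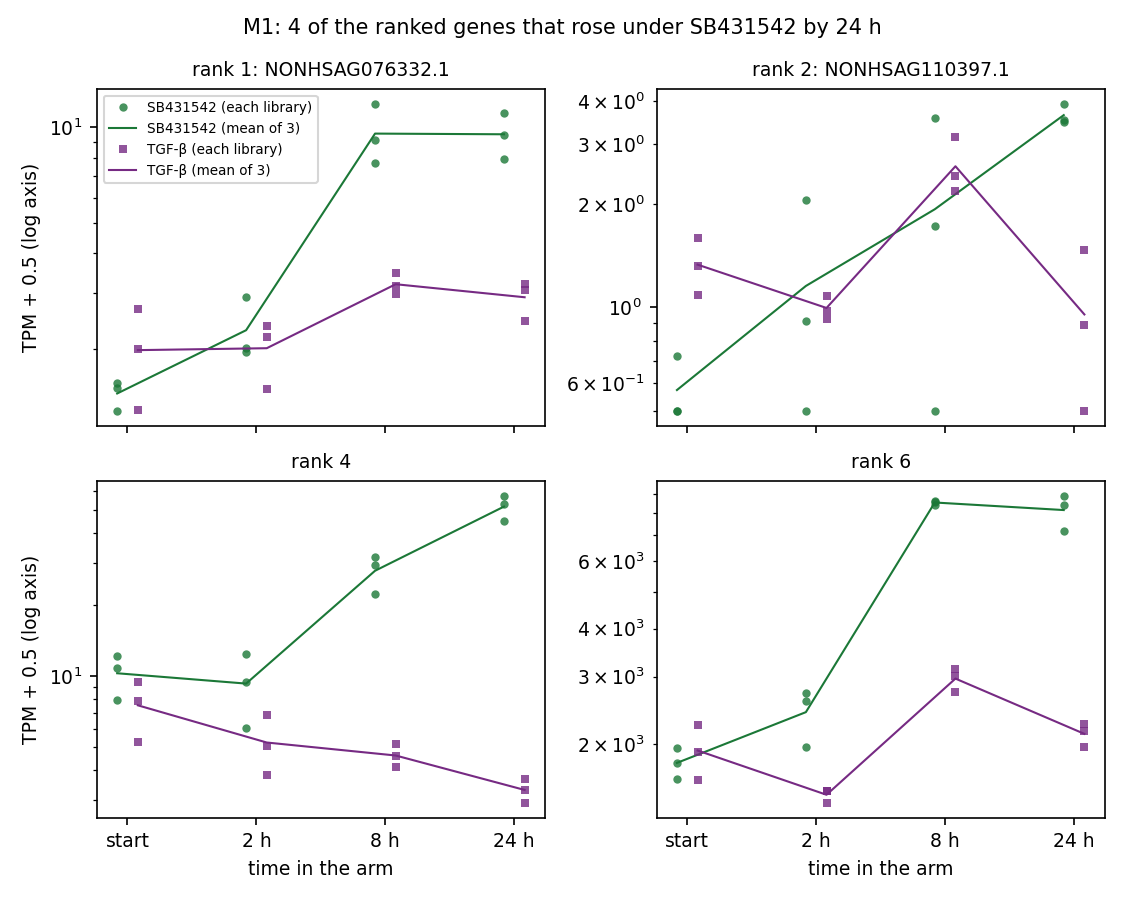
TPM + 0.5 on a log axis for the genes ranked 1, 2, 4 and 6 among those that rose under SB431542 in M1, with each library as a point and the mean of 3 as a line, for the SB431542 arm and the TGF-β arm. At 24 h every SB431542 library lies above every TGF-β library in all 4 panels, and the rank 6 gene stands at 8420 to 8590 TPM at 8 h and 7180 to 8860 TPM at 24 h of SB431542.

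Ranks 3, 5 and 8 also rose by 24 h. Rank 3 stood at 5.64, 3.1 and 3.35 TPM at 24 h of SB, against 0.178, 0.2 and 0.824 TPM at the earliest time. Rank 5 stood at 9.96, 15.4 and 13.7 TPM at 24 h, against 1.14, 2.85 and 3.03 TPM. Rank 8 stood at 10, 8.18 and 9.84 TPM at 24 h, against 0.782, 1.69 and 3.19 TPM, and it fell under TGF-β to 0.298, 0.191 and 0 TPM at 24 h, against 1.96, 1.37 and 1.5 TPM in the controls. The rank 8 call under SB was lost without earliest SB replicate 1 (limma adjusted p 0.0543) and with a pseudocount of 0.1 (0.126).

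Ranks 7, 9 and 10 were listed at 0 in all 3 earliest SB libraries, so no fold change is given for them. At 24 h rank 7 stood at 1.63, 1.65 and 2.06 TPM, rank 9 at 4.19, 0.864 and 1.14 TPM, and rank 10 at 1.95, 1.86 and 1.28 TPM. None of them was called against the non-stimulated controls by limma, where the adjusted p was 0.651, 0.613 and 0.0619. The rank 7 call was lost on leaving out any of the 6 libraries compared, with adjusted p of 0.0765 to 0.0963, and with no filter (0.0748). That of rank 9 was lost without any of the earliest SB replicates or 24 h replicate 1, with adjusted p of 0.0575 to 0.143. That of rank 10 was lost when 24 h replicate 1 (adjusted p 0.0568) or 2 (0.0529) was omitted. The 10 ranked rises had log2 changes of 2.12 to 2.70, with limma adjusted p of at most 0.0297. For ranks 7, 9 and 10 this fitted value depends on the pseudocount and is no measure of fold. Of the 10 rises 6 were called at 8 h and 0 at 2 h, and 1.87% of all genes were called higher at 8 h. The ranking used the same earliest libraries, which favoured the calls at 8 h.

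**Figure D4:**
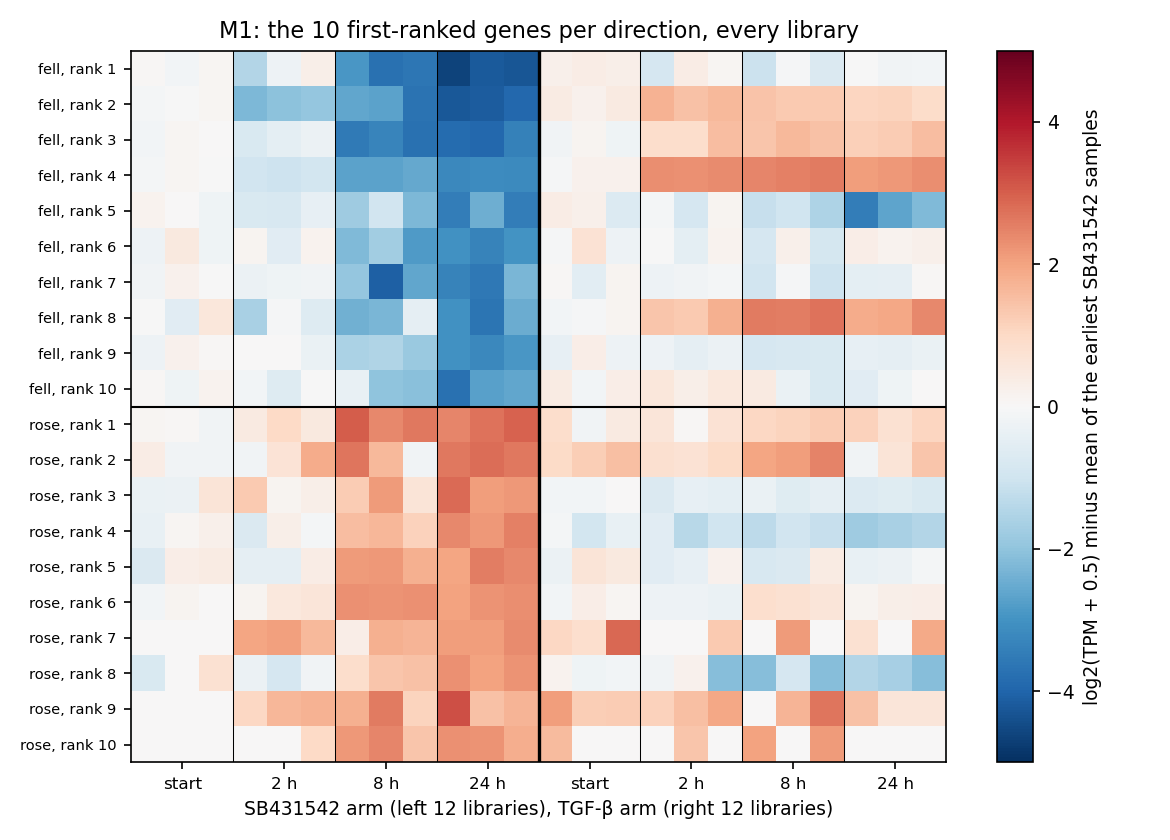
log2(TPM + 0.5) minus the mean of the earliest SB431542 samples for the 10 first-ranked falls (upper rows) and rises (lower rows) in every M1 library, with the SB431542 arm in the left 12 columns and the TGF-β arm in the right 12. Falls ranked 2, 3, 4 and 8 are blue in the SB431542 arm and red in the TGF-β arm, and the rank 5 fall turns blue in both.

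At 2 h the 17 calls rested on a spread estimated over all 24 M1 libraries, and a fit of the compared groups alone called 1 gene, which was lower. The 11 falls had log2 changes of −2.38 to −0.52 and the 6 rises of 0.70 to 1.81. All 17 were called in the same direction after median-of-ratios scaling. NONHSAG082069.1 was second by size among the falls. The first was a scarce gene, listed at 0.0315, 0 and 0 TPM at 2 h, against 3.16, 0.71 and 3.74 TPM at the earliest time. It was back at 2.36, 1.23 and 1.18 TPM at 24 h, and the controls of the other arm stood at 0.53, 0.154 and 0.0416 TPM, below every earliest SB library. Its call at 2 h (limma adjusted p 0.0365) was lost without earliest SB replicate 1 or 3, or without any 2 h replicate (adjusted p 0.102 to 0.249), with no filter (0.0816) and in a fit of the compared groups alone (0.252).

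The largest rise at 2 h put a gene at 2.56, 4.13 and 3.86 TPM, against 1.05, 0.61 and 0.327 TPM at the earliest time (log2 1.81, SE 0.27, limma adjusted p 0.00291). That call was lost when 2 h replicate 2 was omitted (0.0526) and in a fit of the compared groups alone (0.212). It stayed at 2.03, 2.93 and 2.52 TPM at 24 h. The next stood at 2.05, 1.1 and 0.654 TPM at 2 h, against 0, 0.0876 and 0.0497 TPM, and its call (limma adjusted p 0.0332) was lost without any of the earliest SB replicates, or without 2 h replicate 1 or 2 (adjusted p 0.0863 to 0.192), and in a fit of the compared groups alone (0.341). A more abundant rise stood at 102 ± 18.7 TPM at 2 h, against 46.6 ± 2.95 TPM at the earliest time (SD, n = 3 each, log2 1.11, limma adjusted p 1.16e-04). This gene was picked for its level after its values were seen.

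The later SB libraries were set against the non-stimulated controls, which share no library with the 2 h comparison. Of the 11 genes lower at 2 h, 8 were called lower at 8 h against the controls (72.7%, and 1.2% of the 668 called lower there) and 0 higher. Of the 6 genes higher at 2 h, 4 were called higher at 8 h against the controls and 0 lower. At 24 h against the controls, 8 of the 11 were lower and 1, the first-ranked fall of 2 h, was higher (log2 1.51, limma adjusted p 0.0404). Of the 6 rises 2 were called higher at 24 h. In these comparisons limma called 2.04% of all genes higher and 3.2% lower at 8 h, and 1.9% higher and 4.88% lower at 24 h.

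At 8 h the 3 first-ranked falls were the genes ranked 3, 1 and 2 at 24 h, and the first rises those ranked 1 and 6. Both rankings rest on the same earliest SB libraries. The rank 3 rise of 8 h was listed at 0 in all 3 earliest SB libraries and stood at 2.3, 1.56 and 1.79 TPM at 8 h, and at 24 h it was at 0.0743, 0.951 and 0.812 TPM. The 24 h level was called neither against the earliest samples (limma adjusted p 0.122) nor against 8 h (adjusted p 0.484). It was called higher at 8 h of TGF-β as well, at 0.951, 1.47 and 2.24 TPM, against 0.363, 0 and 0 TPM in the controls (limma adjusted p 0.00441).

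Between 8 h and 24 h of SB, limma called 18 genes, 0 higher and 18 lower at 24 h, which is 0.0861% of those tested. A fit of the compared groups alone called 7, all lower, and no filter and quantile normalization each called 28, of which 6 were higher. Without adjustment 1259 genes had a p under 0.05. The log2 changes of the 18 ran from −2.22 to −0.52, and 11 of them were also called lower after median-of-ratios scaling, which called 12 in all, 1 of them higher. Some of these late falls were abundant. One stood at 1460 ± 87.6 TPM at 24 h, against 2480 ± 519 TPM at 8 h, and lost its limma call after rescaling (adjusted p 0.215). Another stood at 1520 ± 102 TPM at 24 h, against 2220 ± 28.2 TPM at 8 h, and was called after rescaling (adjusted p 0.0313; SD, n = 3 each). These 2 were chosen for their level after their values were seen. Omitting 8 h replicate 2 left 11 of these calls in number, and omitting 24 h replicate 2 left 9.

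The earliest SB samples and the non-stimulated controls come from different arms and both precede any long exposure. Limma called 0 genes between them (0%), under the deposited and under median-of-ratios scaling. Without adjustment 1187 genes had a p under 0.05 as deposited and 1222 after rescaling. The count was 1 without control replicate 1 or 3 and with a pseudocount of 1, and 2 with no filter. With the controls as the baseline, limma called 426 genes higher and 668 lower at 8 h of SB, and 398 higher and 1019 lower at 24 h. The split at 24 h was 600 higher and 880 lower after rescaling. With a total taken without the 10 top genes it was 716 and 786 at 24 h and 713 and 512 at 8 h. Omitting 8 h replicates 1, 2 and 3 in turn took the 8 h total of 1094 to 589, 727 and 664, and omitting control replicates 1 and 2 took it to 727 and 617. The 24 h total of 1417 became 924 when 24 h replicate 1 was omitted and 940 when control replicate 2 was. All 10 ranked falls and 6 of the 10 ranked rises were called at 24 h against the controls too, where 4.88% of all genes were lower and 1.9% higher. The same 24 h libraries set the ranking, so such calls were favoured by the selection.

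Comparisons of SB that share no library were set side by side. Of the 677 genes lower at 24 h than at the earliest time, 375 were lower at 8 h than in the controls (55.4%, and 56.1% of the 668) and 0 were higher. Of the 420 higher, 188 were higher at 8 h than in the controls (44.8%, and 44.1% of the 426) and 0 were lower. In the other pairing, 312 of the 379 genes lower at 8 h than at the earliest time were lower at 24 h than in the controls (82.3%, and 30.6% of the 1019). Of the 391 higher, 192 were higher at 24 h than in the controls (49.1%, and 48.2% of the 398). These pairs share no library, but all libraries enter the same fit and its estimate of the spread.

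The receptor block was then set beside the ligand, whose libraries are all separate from those of the SB arm. Against the controls, limma called 1103 genes higher (5.28%) and 799 lower (3.82%) at 8 h of TGF-β, and 544 higher (2.6%) and 2917 lower (14%) at 24 h. A fit of the compared groups alone took the 24 h total of 3461 to 2254. Median-of-ratios scaling put these percentages at 5.21% and 5.52% at 8 h, and at 6.73% and 5.78% at 24 h. The TGF-β libraries of 24 h were uneven, with 14513, 14205 and 15597 genes at 0.5 TPM or more in replicates 1, 2 and 3. Their 10 most abundant genes held 71.2%, 70.5% and 65.4% of the TPM, and their scaling factors were 0.76, 0.75 and 0.98. The median log2 change of all genes at 24 h of TGF-β was −0.25 as deposited and 0.00 after rescaling, so the counts below are given for both.

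Of the 677 genes lower at 24 h of SB, 85 were higher at 24 h of TGF-β (12.6%, and 15.6% of the 544), 264 were lower (39%, and 9.05% of the 2917) and 328 were not called. After rescaling, 183 of 851 genes lower with SB were higher with TGF-β (21.5%) and 199 were lower (23.4%). Genes that fell with the inhibitor were thus called more often than all genes in both directions under the ligand, under both scalings. Calls were more frequent at higher levels, as given above, and the part of level in these shares was not tested. Of the 420 genes higher at 24 h of SB, 59 were lower with TGF-β (14%), which is the share of all genes called lower there. Another 65 were higher (15.5%, against 2.6% of all genes). After rescaling, 36 of 563 were lower (6.39%, near the 5.78% of all genes) and 169 were higher (30%, against 6.73%). Opposite calls therefore stood above the background for the genes that fell with SB and near it for those that rose.

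**Figure D5:**
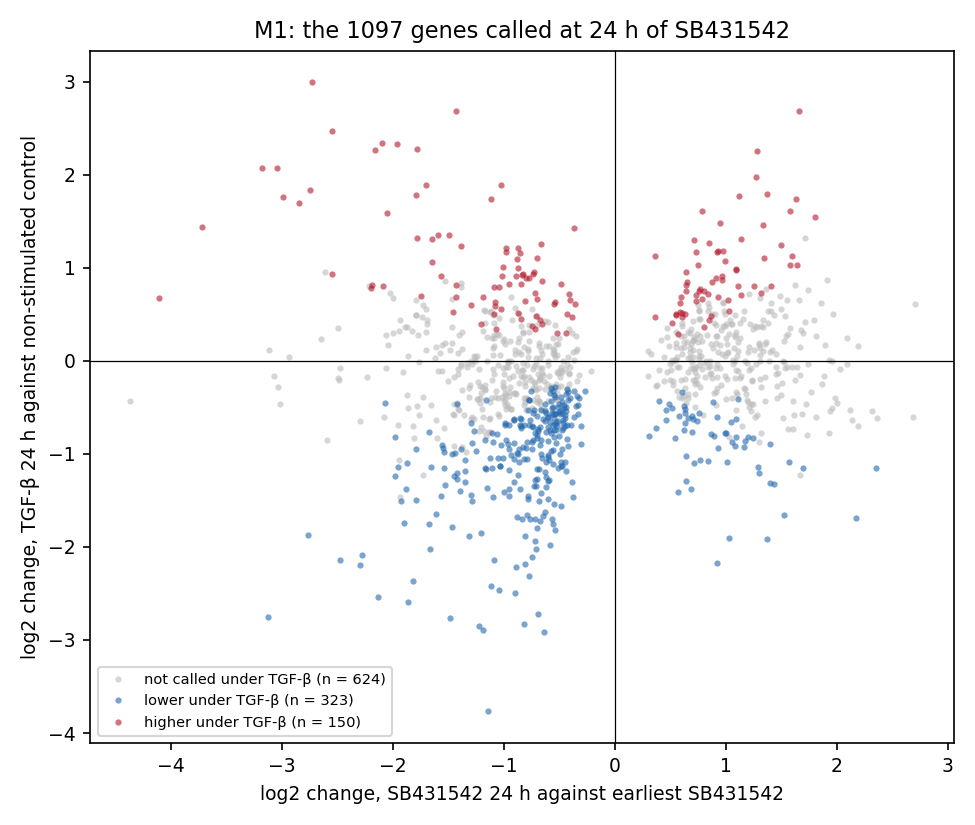
Each of the 1097 M1 genes called at 24 h of SB431542, with its log2 change over the SB431542 course on the x axis and over the TGF-β course on the y axis, coloured by its call under TGF-β. Of the genes left of 0, 85 are called higher and 264 lower under TGF-β, and of those right of 0, 65 are called higher and 59 lower.

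At 8 h 69 of the 379 genes lower with SB were higher with TGF-β (18.2%, against 5.28% of all genes). Another 108 were lower (28.5%, against 3.82% of all genes). Of the 391 genes higher with SB at 8 h, 125 were higher with TGF-β (32%) and 11 were lower (2.81%, below the 3.82% of all genes). After rescaling, 102 of 701 lower genes were higher (14.6%) and 227 lower (32.4%) with TGF-β. Of the 421 higher genes, 119 were higher (28.3%) and 19 lower (4.51%). Of all genes, 5.21% were called higher and 5.52% lower there.

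Of the first 10 falls, 4 genes were called higher under TGF-β at 24 h, 1 was called lower and 5 were not called. Those higher were ranks 2, 3, 4 and 8, with values given above. Among the first 10 rises 0 were called higher under TGF-β by limma, 2 were called lower (ranks 4 and 8) and 8 were not called, with log2 changes of −1.69 to 0.61. The third gene of the class higher with SB and lower with TGF-β was scarce. It stood at 2.86, 3.53 and 3.6 TPM at 24 h of SB, against 0.887, 0.601 and 0.564 TPM at the earliest time. With TGF-β it stood at 0.0919, 0.0623 and 0.188 TPM at 24 h, against 1.04, 0.95 and 0.612 TPM in the controls. Of the 85 genes of the class lower with SB and higher with TGF-β, 82 were in it after rescaling too, against 26 of the 59 in the reverse class.

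Genes that moved the same way in both arms formed 2 further classes, of 264 lower and 65 higher genes as deposited, of which 139 and 64 were in the same class after rescaling. The first of the lower class is the rank 5 fall. The second stood at 0.76, 1.47 and 1.44 TPM at 24 h of SB, against 14.2, 8.61 and 10.7 TPM at the earliest time, and at 3.08, 1.22 and 1.81 TPM at 24 h of TGF-β, against 6.19, 8.89 and 10.7 TPM in the controls. The third stood at 7.76, 4.87 and 8.83 TPM at 24 h of SB, against 38, 43.6 and 41.8 TPM, and at 8.2, 7.09 and 7.3 TPM at 24 h of TGF-β, against 33.5, 45.4 and 27.9 TPM. Inhibitor and ligand thus ended at overlapping levels for this gene. A decline of this kind in both arms cannot be told apart from a change with time alone, since neither arm has a vehicle library of 24 h.

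In the class higher in both arms, the first gene stood at 4.53, 5.14 and 6.85 TPM at 24 h of SB, against 0.753, 1.75 and 1.25 TPM at the earliest time. With TGF-β it stood at 3.35, 3.65 and 4.48 TPM at 24 h, against 1.07, 1.02 and 0.849 TPM in the controls. The second was at 9.56, 8.91 and 8.75 TPM at 24 h of SB, against 0.76, 5.83 and 2.96 TPM, a limma call with adjusted p 0.0487 that was lost without earliest SB replicate 1 or 3 or any 24 h replicate (0.092 to 0.289), with a pseudocount of 0.1 (0.0681), with no filter (0.115) and in a fit of the compared groups alone (0.0837). The third stood at 3.21, 2.29 and 3.03 TPM at 24 h of SB, against 0.447, 0.66 and 0.592 TPM, and at 2.81, 2.73 and 2.33 TPM at 24 h of TGF-β, against 1.12, 1.19 and 0.798 TPM.

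The difference between the courses was tested directly, as the change over the SB course minus the change over the TGF-β course. At 8 h limma called 253 genes with a higher SB course (1.21%) and 409 with a lower one (1.96%). At 24 h it called 1276 with a higher SB course (6.11%) and 419 with a lower one (2%). The 24 h split was 569 and 899 after median-of-ratios scaling and 982 and 605 with a total taken without the 10 top genes, so its direction rests on the scaling. At 8 h that last setting gave 545 and 397. The 419 genes with a lower SB course were all called so after rescaling too, and so were 568 of the 1276 with a higher one. This test contains the SB change itself, so that genes chosen by their SB call are more often called in it.

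As deposited, all 85 genes lower with SB and higher with TGF-β were called different between the courses, as were all 59 of the reverse class. The difference adds up opposite changes of the same libraries that set these classes, so this outcome was close to fixed beforehand. Of the 328 genes lower with SB and not called with TGF-β, 134 had a lower SB course. Of the 296 genes higher with SB and not called with TGF-β, 123 had a higher SB course. In the class lower in both arms, the course differed in 53 of 264 genes, with 50 higher and 3 lower under SB. Among the first 10 falls 9 differed between the courses, and the exception was the fifth (log2 difference −0.37, SE 0.55, limma adjusted p 0.762). All 10 of the first rises differed, though only 6 of them were called at 24 h of SB against the controls. A gap between the starts of the 2 arms enters this difference as well. The difference was −3.95 (SE 0.49, limma adjusted p 1.27e-05) for NONHSAG061061.2 and −4.78 (SE 0.27, adjusted p 5.55e-11) for NONHSAG082069.1. It was 2.10 (SE 0.37, limma adjusted p 8.12e-04) for NONHSAG076332.1 and 3.29 (SE 0.75, adjusted p 0.007) for NONHSAG110397.1. The latter started at a mean of 0.0741 TPM in the SB arm and 0.834 TPM in the controls.

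The SB course of M1 was compared with those of the other lines by the same kind of difference, in fits over the 48 libraries of 2 lines. Between M1 and MDA-MB-231 limma called 271 of 22921 genes with a higher course in M1 (1.18%) and 349 with a lower one (1.52%). Median-of-ratios scaling gave 379 and 780. Omitting replicate 1 or 2 of MDA-MB-231 at 24 h took the total of 620 to 410 or 402. Of the 677 genes lower in M1, 230 had a lower course in M1 than in MDA-MB-231 (34%) and 0 a higher one. Of the 420 higher in M1, 145 had a higher course in M1 (34.5%) and 0 a lower one. As above, the M1 change is part of both selection and test. The median log2 change in MDA-MB-231 itself was −0.05 over the 576 M1-lower genes tested there and −0.05 over all 16552 genes. It was 0.07 over the 306 M1-higher genes.

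In M2 the median log2 change over the SB course was −0.63 over 16958 genes as deposited and −0.11 after rescaling. Limma called 3891 of 21857 genes with a higher course in M1 than in M2 (17.8%) and 334 with a lower one (1.53%), against 1116 and 1651 after rescaling and 1017 and 386 with a total taken without the 10 top genes. The median change in M2 of the 651 M1-lower genes tested there was −0.83 as deposited and −0.09 after rescaling. It thus lay below the median of all genes as deposited and close to it after rescaling. The 375 M1-higher genes had a median of −0.42 as deposited and 0.30 after rescaling, above the median of all genes under both. Of the 677 M1-lower genes, 138 had a lower course in M1 than in M2 (20.4%) and 81 a higher one (12%). After rescaling these were 415 (48.8%) and 21 of 851. Of the 420 M1-higher genes, 301 had a higher course in M1 (71.7%) and 8 a lower one. After rescaling these were 239 of 563 (42.5%) and 47.

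Single genes were then compared between the lines. In M2 NONHSAG061061.2 stood at 0.722, 0.283 and 0.454 TPM at 24 h of SB, against 9.77, 13.3 and 10.6 TPM at the earliest time, and no difference between the M1 and M2 courses was called by limma (log2 difference −0.79, SE 0.77, adjusted p 0.515). In MDA-MB-231 it stood at 14.6, 17.7 and 3.55 TPM at 24 h, against 4.05, 3.26 and 5.38 TPM, and the log2 difference of the M1 course was −5.53 (SE 0.55, limma adjusted p 7.52e-09). In both MCF10A lines the 3 libraries at 24 h thus lay below the 3 earliest ones, which the naming rule required in M1. In MDA-MB-231 the groups overlapped.

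NONHSAG082069.1 stood at 1.71, 1.98 and 1.65 TPM at 24 h of SB in M2, against 15.4, 10.4 and 17.3 TPM, and at 0.7, 0.45 and 1.07 TPM in MDA-MB-231, against 0.912, 1.32 and 0.85 TPM. The log2 difference of its M1 course was −1.43 from M2 (SE 0.42, limma adjusted p 0.0133), or −2.18 after median-of-ratios scaling, and −3.79 from MDA-MB-231 (SE 0.36, adjusted p 3.34e-09). The rank 3 fall stood at 13.3, 10.4 and 8.67 TPM at 24 h of SB in M2, against 94.6, 100 and 143 TPM, and as deposited no difference between the M1 and M2 courses was called (log2 difference −0.40, SE 0.34, limma adjusted p 0.449). After median-of-ratios scaling the M1 course was called lower (log2 difference −1.32, limma adjusted p 4.71e-05).

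Some genes that fell in M1 stood higher at 24 h of SB in M2 than at the start. The rank 4 fall was at 156, 147 and 117 TPM at 24 h in M2, against 20.5, 15 and 20.8 TPM (log2 difference of the courses −6.05, SE 0.31, limma adjusted p 5.23e-17). The fifth was at 31.5, 25.1 and 14.3 TPM in M2, against 0, 0.512 and 1.23 TPM (log2 difference −7.71, SE 0.59, limma adjusted p 3.11e-12). The third gene of the class lower in both M1 arms was at 44.8, 42.5 and 27 TPM in M2, against 2.72, 3.34 and 2.15 TPM (log2 difference −6.04, SE 0.43, limma adjusted p 4.16e-13). For these 3 genes the groups of the 2 times did not overlap in either line, and the order of the times was opposite.

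NONHSAG076332.1 stood at 6.62, 8.16 and 5.53 TPM at 24 h of SB in M2, against 3.87, 5.78 and 5.13 TPM, where the groups overlapped. Its M1 course was higher by 2.28 (SE 0.35, limma adjusted p 7.49e-06) than that of M2, or by 1.24 after median-of-ratios scaling, and by 2.69 (SE 0.36, adjusted p 5.41e-06) than that of MDA-MB-231, in which it stood at 0 to 0.284 TPM. NONHSAG110397.1 was listed at 0 in all M2 libraries of 24 h, against 0.664, 0.14 and 0.606 TPM at the earliest time. Its M1 course was higher by 3.59 (SE 0.71, limma adjusted p 3.05e-04) than that of M2 and by 2.67 (SE 0.57, adjusted p 0.00446) than that of MDA-MB-231. The rank 6 rise was at 37.5, 39.1 and 24.4 TPM at 24 h in MDA-MB-231, against 7.7, 9.41 and 5.28 TPM, and no difference of its course from that of M1 was called (log2 difference 0.08, SE 0.33, limma adjusted p 0.943).

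The courses most like those of the 2 first-ranked genes were sought over the 12 SB libraries, as a description, since these libraries share their groups. The 5 genes most like NONHSAG061061.2 had Pearson r of 0.982 to 0.989 on the log2 scale. Their mean TPM was 86.3 to 141 at 24 h, against 206 to 739 in the earliest samples, and all 5 were called lower at 24 h. The likeness was sought in the libraries that give these calls, so the calls are no separate result. One of them was rank 12 by size of fall, at a mean of 96 TPM at 24 h, against 739 TPM. Under TGF-β for 24 h 3 of the 5 were called higher, 1 lower and 1 was not called. Of all genes 2.6% were called higher and 14% lower there. The 5 genes most like NONHSAG076332.1 had r of 0.976 to 0.985, and the first of them was the abundant rank 6 rise.

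The 10 most abundant genes were examined on their own. None of them was called at 24 h of SB by limma, and 2 were called higher at 8 h, the sixth (log2 0.32, adjusted p 0.0393) and the ninth (log2 0.33, adjusted p 0.0173). The seventh varied between replicates, at 1.15 TPM in 2 h replicate 3 and at 9501 to 46960 TPM in the other 11 SB libraries, and its log2 change at 24 h had a standard error of 3.56. The first stood between 261000 and 309000 TPM in all 12.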

How the data were processed

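Total RNA of 3 breast cell lines was sequenced, and the values the authors deposited are TPM of 96411 lncRNA genes in 72 libraries. The build GRCh38, HISAT2 2.2.0, StringTie 1.3.6, cutadapt 2.10 and FastQC are listed in the submitters' processing notes. No strand setting or annotation release was given in the sources used here, so reads of a gene and of its antisense or overlapping partner may be mixed. The TPM were scaled over lncRNA genes alone, so a change in an abundant gene shifts the others. None of the identifiers matched the RefSeq or GENCODE tables (0 matches), so 2 identifiers per direction are printed and the others are given by rank, without names, positions or sequences.

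Groups follow the sample labels. Triplicates are biological per the series' design text; if cultures were shared, the p-values would reflect technical spread alone. All 24 M1 libraries (8 groups), or the 48 of 2 lines, were fitted on log2(TPM + 0.5) with limma 3.58.1 (eBayes with trend) in R 4.3.3, with version 1.17.8 of the data.table package. Tests were two-sided, over 13 comparisons. The fit was tested on simulated data. Genes named by time were called under deposited and median-of-ratios scaling with non-overlapping libraries and ranked by log2 change. Of these the first 10 per direction were described at 24 h, 3 at 8 h and 2 at 2 h. For each class of the 2 arms, the first 3 by SB log2 change were taken on the deposited calls alone. The other settings were pseudocounts of 1 and 0.1, no filter, a minimum mean of 1 TPM, other scalings, a replicate block, only the compared groups, and each library left out. Figures were drawn with matplotlib 3.10.9. The genes, lists, tests and settings were chosen with earlier results of these data known.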

Additional observations from a re-analysis of the deposited data

Results flagged for a closer look

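The SB and TGF-β courses of M1 differed, by a test of the difference itself, in 662 genes at 8 h and 1695 genes at 24 h. Between lines, the SB courses at 24 h differed in 4225 genes for M1 against M2 and in 620 genes for M1 against MDA-MB-231. Counts of this kind moved with the scaling, as given below.

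The 4 genes followed by identifier were among them. These genes were chosen for the size of their SB change in M1, which is part of each difference, so a call was more likely for them. On the log2 scale the SB course minus the TGF-β course was −3.95 for NONHSAG061061.2, −4.78 for NONHSAG082069.1, 2.10 for NONHSAG076332.1 and 3.29 for NONHSAG110397.1. A gap between the starts of the 2 arms enters these values as well. The M1 course minus the MDA-MB-231 course was −5.53, −3.79, 2.69 and 2.67 for these genes in the same order. The M1 course minus the M2 course was −1.43 for NONHSAG082069.1, 2.28 for NONHSAG076332.1 and 3.59 for NONHSAG110397.1, while that of NONHSAG061061.2 did not pass limma's test. Groups of 3 libraries are too small for a test of single outlying libraries.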

How the results depend on the processing

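TPM keeps no depth, so low values carry an unknown counting error. Of 534 values of the 36 gene results under other settings, 494 kept their direction and their side of the threshold. Only the direction was kept by 40, and 0 reversed. In every setting where they could be tested, 28 of the 36 passed. With a minimum mean of 1 TPM only 30 of the 36 could be tested. For genes ranked by time, the call under median-of-ratios scaling was already required by the naming rule, so that setting could not fail. For the counts the cause of a shift was not tested. Scaling by median ratios, without the 10 top genes, and by quantiles gave 28, 28 and 27 genes at 2 h (17 as reported), and 2767, 1403 and 2258 for M1 against M2 (4225). For M1 against MDA-MB-231 (620) median ratios gave 1159 and quantiles 1143. Only the compared groups in the fit gave 1 gene at 2 h, 7 for 24 h against 8 h (18) and 2254 for TGF-β at 24 h (3461). For 24 h against 8 h, no filter gave 28 and quantiles 28. For the earliest SB samples against the controls (0), a pseudocount of 1 gave 1 and no filter 2.

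Leaving out 1 library gave 5 to 17 genes at 2 h, 439 to 522 at 8 h (770), 700 to 761 at 24 h (1097), 9 to 19 for 24 h against 8 h and 0 to 1 for the earliest SB samples against the controls. It gave 589 to 736 at 8 h (1094) and 924 to 1125 at 24 h (1417) against the controls, and 402 to 707 for M1 against MDA-MB-231. The difference in the top gene's share (0.458 percentage points, 24 h minus earliest) ran from −0.341 to 1.12, and was −0.341 and −0.28 in the 2 cases that reversed it.

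Replicate numbers gave little sign of pairing in the pairs examined. The earliest SB libraries correlated with same-numbered ones of the later SB times and the controls at r of −0.042 to 0.036. Of these 12 pairs 0 were over 0.1. Of the 24 M1 libraries 11 correlated best with their own number, and the number expected without pairing was not worked out. With the replicate number as a block, limma called 17 genes at 2 h, 808 at 8 h, 1124 at 24 h, 18 for 24 h against 8 h and 0 for the earliest SB samples against the controls. The block gave 1170 and 1485 for SB against the controls at 8 h and 24 h, 1978 and 3534 for TGF-β, 710 and 1782 for the difference of the courses, 4160 for M1 against M2 and 673 for M1 against MDA-MB-231. Of the 36 gene results 35 kept their call under the block.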
